A study of Mus musculus with 63 samples.

Results

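Nr2f2, Mctp2, Rgma, Fam174b, St8sia2, Slco3a1 and Sv2b are protein-coding genes around Chd2 on mouse chromosome 7, and their RNA levels were followed in all RNA-seq libraries of the series. They were taken by name for their position and not for any measured value, and make up 7 of the 24990 rows of each deposited table. They are not every protein-coding gene of the span, since Gm10619, Akap13, Klhl25, Agbl1 and B130024G19Rik also start closer to Chd2 than Nr2f2 does and were counted apart. Chaserr is a long noncoding RNA gene transcribed in tandem with Chd2 and upstream of it, and the comparisons address whether a loss of Chaserr, studied for its action on Chd2 in cis, is accompanied by changes in the genes around Chd2. RNA-seq covered adult brains and whole embryos of E9.5 and E13.5 (Chaserr+/- and WT) as well as mouse embryonic fibroblasts (mEFs), grown from E13.5 embryos after removal of head and liver. The mEFs were Chaserr+/-, Chaserr-/-, Chd2 m/m or Chaserr-/- Chd2 m/m, each with WT mEFs of its own set. The WT mEFs of the Chaserr+/- set and those of the Chaserr-/- set each came from the same pregnancy as their mutants. By title, double mutant mEFs came from the Chd2+/m cross but their WT mEFs from the Chaserr+/- Chd2+/m cross, although the descriptions place both in 1 set. Each group had 3 libraries, except that Chd2 m/m mEFs had 2. RNA immunoprecipitation (RIP) with an antibody to CHD2, with IgG, and the input, each with 2 libraries, came from Neuro2a cells, a mouse neuroblastoma line. ATAC-seq peaks were available for Chaserr-/- and Chaserr-/- Chd2 m/m mEFs and the WT mEFs of both sets, with 3 libraries in each group. By title, the WT mEFs of each ATAC-seq set came from the same pregnancy as its mutants.

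The alleles were made by Cas9 editing of CB6F1 Ola HSD zygotes followed by crosses to C57BL/6 Ola HSD. This background was shared by the embryos, brains and mEFs but not by the Neuro2a cells. The Chaserr allele lacks the promoter region. It came from 2 founder lines used interchangeably, whereas that of the double mutant was made anew on the Chd2 m/m background with sgRNAs 2 and 3. The Chd2 m allele is a frameshift in the third exon, so it can still be transcribed. The embryos were sequenced with TruSeq, the mEFs with Lexogen SENSE, and the brains with both kits, replicate 3 of each genotype being TruSeq. Total counts per library ran from 21589962 to 31293072 in embryos, from 13956040 to 33192002 in brains, from 9672637 to 16983416 in mEFs and from 7621335 to 20050508 in the RIP. The Chaserr-/- mEF cultures were derived independently of each other, and the ATAC-seq used mEFs isolated separately from 3 embryos of a background. For the other groups the labels do not say that libraries came from separate animals, so p values there measure the spread between these libraries, which may be technical.

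These genes have unrelated functions. RGMA is a membrane-bound guidance molecule that signals through neogenin and is also a coreceptor for bone morphogenetic proteins (BMPs). St8sia2 encodes a sialyltransferase that adds polysialic acid to NCAM in developing nerve and muscle, Sv2b a synaptic vesicle glycoprotein, Slco3a1 an organic anion transporter, Mctp2 a membrane protein with C2 domains, and Nr2f2 the nuclear receptor COUP-TFII, which acts in vessel and heart development. Fam174b encodes a small membrane protein. CHD2 itself is a chromatin remodeller whose dosage matters for brain development in humans, and a lncRNA that acts in cis can in principle affect one neighbour or a whole domain.

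In mm9, Chd2 occupies chr7:80571577-80686632 on the minus strand. On its 3′ side lie Rgma (chr7:80520406-80564785, plus strand), Mctp2 (chr7:79222718-79451481, minus strand) and Nr2f2 (chr7:77496832-77511621, minus strand). Rgma converges on Chd2, and 6.8 kb separate the ends of both genes. On the 5′ side, beyond Chaserr, lie Fam174b (chr7:80885193-80921805, plus strand), St8sia2 (chr7:81084005-81158568, minus strand), Slco3a1 (chr7:81420305-81699666, minus strand) and Sv2b (chr7:82259783-82454148, minus strand). Counted from the start of Chd2, the start sites are 166.2 kb away for Rgma, 198.6 kb for Fam174b, 471.9 kb for St8sia2, 1013.0 kb for Slco3a1, 1235.2 kb for Mctp2, 1767.5 kb for Sv2b and 3175.0 kb for Nr2f2. Chaserr, listed as 1810026B05Rik, has no position in the annotation used.

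The guide RNAs show where the alleles were cut relative to these genes, and each is given 5′ to 3′ with its PAM in capitals. Each matched chromosome 7 of mm9 once.
sgRNA 1: cggtccgagccagcggggagAGG
sgRNA 2: gaggtgggaacccatctttgGGG
sgRNA 3: agtgaaactctgggtttgcgGGG
sgRNA 4: tgctgagaacatggaagcggTGG
sgRNA 6: agctatccgttccttcttagAGG
The Chaserr guides match chr7:80702699-80702718 (sgRNA 1, minus strand), chr7:80702568-80702587 (sgRNA 2, minus strand), chr7:80703696-80703715 (sgRNA 3, plus strand) and chr7:80703600-80703619 (sgRNA 4, minus strand). Their cut sites lie from 15.94 to 17.08 kb upstream of the Chd2 start, in the gap between Chd2 and Fam174b. The stretch between an outer and an inner cut is 901 to 1142 bases long, depending on the pair, and lies outside the annotated bounds of all 7 neighbours. The guide for the third exon of Chd2 (sgRNA 6) matches chr7:80664375-80664394 on the plus strand, 22.24 kb inside the gene.

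The labels were checked against the targeted genes. Chaserr had 71, 50 and 41 counts in the WT mEFs of the Chaserr-/- set and 0 in all 3 Chaserr-/- libraries, where the floor of 3 counts per library corresponds to 0.264 to 0.308 CPM (read counts divided by the TMM-scaled library size). The double mutant had 0, 1 and 1 counts against 652, 551 and 548 in WT. An ATAC-seq peak that overlapped the stretch between the guide sites was present in each of the 6 WT libraries, at 11.05 to 16.8-fold enrichment. No such peak was present in any of the 6 mutant libraries. Chaserr was at 4.49, 6.66 and 4.92 CPM in Chaserr+/- mEFs and at 9.11, 9.13 and 8.04 CPM in WT.

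No neighbour passed the test for a change in any mutant. Expected counts were tested with the quasi-likelihood test of edgeR over all rows that passed its filter on low counts, and called means a Benjamini-Hochberg adjusted p under 0.05. At E9.5, 0 of 7 neighbours were called, where 0.0% of 14500 tested genes were, 453 having an unadjusted p under 0.05 and DESeq2 calling 5. The count was 0 of 7 at E13.5 (0.0314% of 15946 genes called) and 0 of 7 in adult brain (0.0% of 14911, with 368 at an unadjusted p under 0.05 and 1 called by DESeq2). It was 0 of 6 in Chaserr+/- mEFs (0.173% of 13282) and 0 of 6 in Chaserr-/- mEFs (0.118% of 13580), since Sv2b had too few counts to be tested there. In Chd2 m/m mEFs it was 0 of 7 (0.0145% of 13777) and in double mutant mEFs 0 of 7 (0.0924% of 14076). An unadjusted p under 0.05 was reached by 3 of 6 neighbours in Chaserr+/- mEFs, against 8.36% of all genes, by 3 of 6 in Chaserr-/- mEFs, against 33.9%, and by none elsewhere, where the shares of all genes were 3.12% (E9.5), 6.34% (E13.5), 2.47% (brain), 4.51% (Chd2 m/m) and 9.89% (double mutant). Mutant and WT libraries did not overlap for 3 of 6 neighbours in Chaserr+/- mEFs (14.5% of all genes), 4 of 6 in Chaserr-/- mEFs (43.2%) and 3 of 7 in Chd2 m/m mEFs (20.7%), and for none at E9.5 (9.62%), at E13.5 (12.8%), in brain (9.22%) or in the double mutant (13.8%). DESeq2 called 1 neighbour, Rgma in Chaserr-/- mEFs, where it called 21.7% of all genes. It called no neighbour elsewhere, and of all genes 0.0262% at E9.5, 0.127% at E13.5, 0.00506% in brain, 0.585% in Chaserr+/-, 0.0656% in Chd2 m/m and 1.65% in double mutant mEFs.

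The median log2 fold change of the tested neighbours was -0.06 at E9.5, 0.01 at E13.5 and -0.01 in brain. It was 0.01 for Chaserr+/-, -0.19 for Chaserr-/-, -0.01 for Chd2 m/m and -0.04 for double mutant mEFs. The same median over all tested genes was at most 0.022 from 0 in any of these comparisons. Chd2 had log2 fold changes of 0.66, 0.78, 0.98, 0.55, 1.45, 0.66 and 1.88 in the same order (adjusted p = 0.104, 0.0029, 1.00, 0.0369, 0.00568, 0.045 and 8.78e-06). The plot of fold changes by position shows this contrast.

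**Figure D1:**
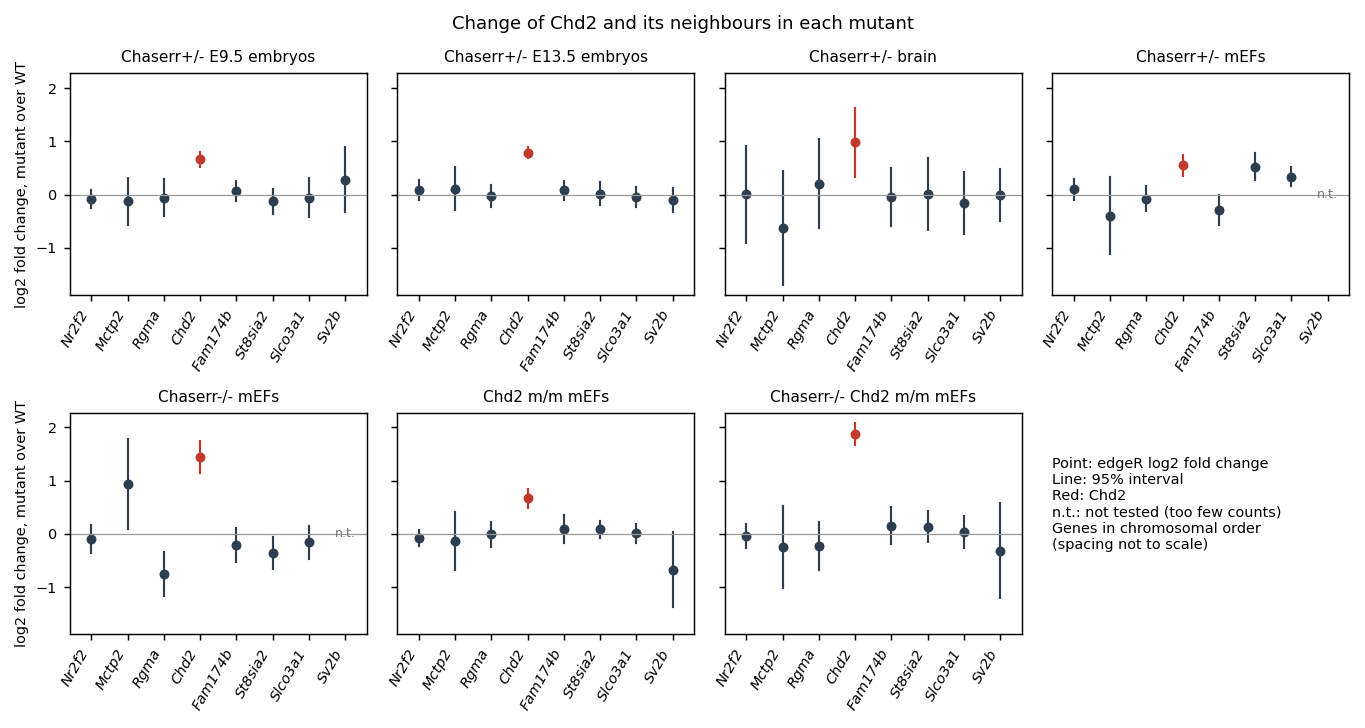
Log2 fold change (mutant over WT, vertical axis) of Chd2 (red) and its neighbours (dark) in chromosomal order in each of the 7 mutant comparisons, from edgeR, with lines for the 95% interval. Chd2 lies above 0 in all panels, from 0.55 to 1.88, whereas the neighbours lie on either side of 0, and n.t. marks Sv2b where it was not tested.

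Rgma, the closest neighbour, had log2 fold changes between -0.23 and 0.21 in 6 of the 7 mutants. In E9.5 embryos it was at 44.9, 44.5 and 63.8 CPM in Chaserr+/- and at 50.7, 48.9 and 59.96 CPM in WT. In E13.5 embryos it was at 96.6, 111 and 105 CPM against 120, 98.8 and 99.6 CPM. The groups overlapped in both, with log2 fold changes of -0.06 (95% interval -0.40 to 0.29) and -0.03 (-0.24 to 0.18). Adult brains had 113, 101 and 52.2 CPM in Chaserr+/- and 95.5, 85.3 and 49.7 CPM in WT, the last value of each being the TruSeq library. The mutant was higher in each of the 3 pairs of equal replicate number, and the log2 fold change was 0.21 (-0.64 to 1.05), or 0.18 with the replicate block (adjusted p = 0.49 from edgeR) and 0.01 with the block and the GC and length correction, not called. Both TruSeq brains lay far below the Lexogen brains of either genotype. In Chaserr+/- mEFs the log2 fold change of Rgma was -0.07 (-0.31 to 0.16), in Chd2 m/m mEFs -0.01 (-0.24 to 0.22) and in double mutant mEFs -0.23 (-0.68 to 0.22).

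Chaserr-/- mEFs had a lower value, but its difference from other mEF mutants was not called in one fit over all mEF sets. The difference was -0.67 from Chaserr+/- mEFs (adjusted p = 0.0758) and -0.51 from double mutant mEFs (adjusted p = 0.165 from edgeR). Rgma was at 42.3, 74.0 and 58.9 CPM in the 3 mutant libraries and at 100, 101 and 94.3 CPM in the WT libraries of the same pregnancy, with no overlap between the groups, as for 21.4% of all genes with the mutant lower. The log2 fold change was -0.75 (standard error 0.185, 95% interval -1.16 to -0.34), and its adjusted p of 0.0522 from edgeR missed the threshold. It was called by DESeq2 (-0.74, adjusted p = 0.00357), without the filter on low counts (adjusted p = 0.0329), with at least 10 counts in every library (adjusted p = 0.0438), and without Chaserr-/- replicate 1 (adjusted p = 0.0325) or replicate 2 (adjusted p = 0.0151). The share of all genes called rose as well, from 0.118% to 21.7%, 7.54%, 10.9%, 7.33% and 20.5% in the same order. Without any of the other 4 libraries it was not called (adjusted p of at most 0.18 from edgeR).

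Other measures moved with this value. This comparison had a trend with GC content: the lowest quintile of GC content had a median log2 fold change of 0.49 and the highest of -0.45, against -0.01 and 0.03 in Chaserr+/- mEFs. Rgma transcripts are 60.8% GC, higher than 96.6% of the tested genes. With the trends of each library with GC content and gene length removed, the log2 fold change of Rgma was -0.25 (adjusted p = 0.176 from edgeR), and with the WT mEFs of the Chaserr+/- set added to the controls it was -0.12 (adjusted p = 0.907). The WT mEFs of this set also stood apart from other WT mEFs. Rgma was at 46.3 ± 1.73 TPM (transcript abundance per length as a share of the library; SD, n = 3) in them and at 13.4 ± 3.12 TPM (SD, n = 9) in the WT mEFs of the other sets, without overlap. Of 12975 genes, 28.3% did not overlap between these WT libraries, 14.3% with the higher level in this set, and Fam174b (13.3 against 7.33 TPM) and St8sia2 (17.9 against 10.1 TPM) were among the higher ones. The Chaserr-/- mEFs, at 21.2, 36.04 and 28.98 TPM of Rgma, were above all WT mEFs of the other sets, which reached at most 19.6 TPM. Summed marker genes of macrophages (1608, 1351 and 1446 TPM) and muscle (1997, 1487 and 1155 TPM) were also higher in the WT mEFs of this set. Other WT mEFs had at most 1034.5 and 880 TPM. Neuron, fibroblast and endothelium sums overlapped between these WT libraries. The part of GC content, of culture and of cell types in the difference of Rgma was not tested.

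**Figure D2:**
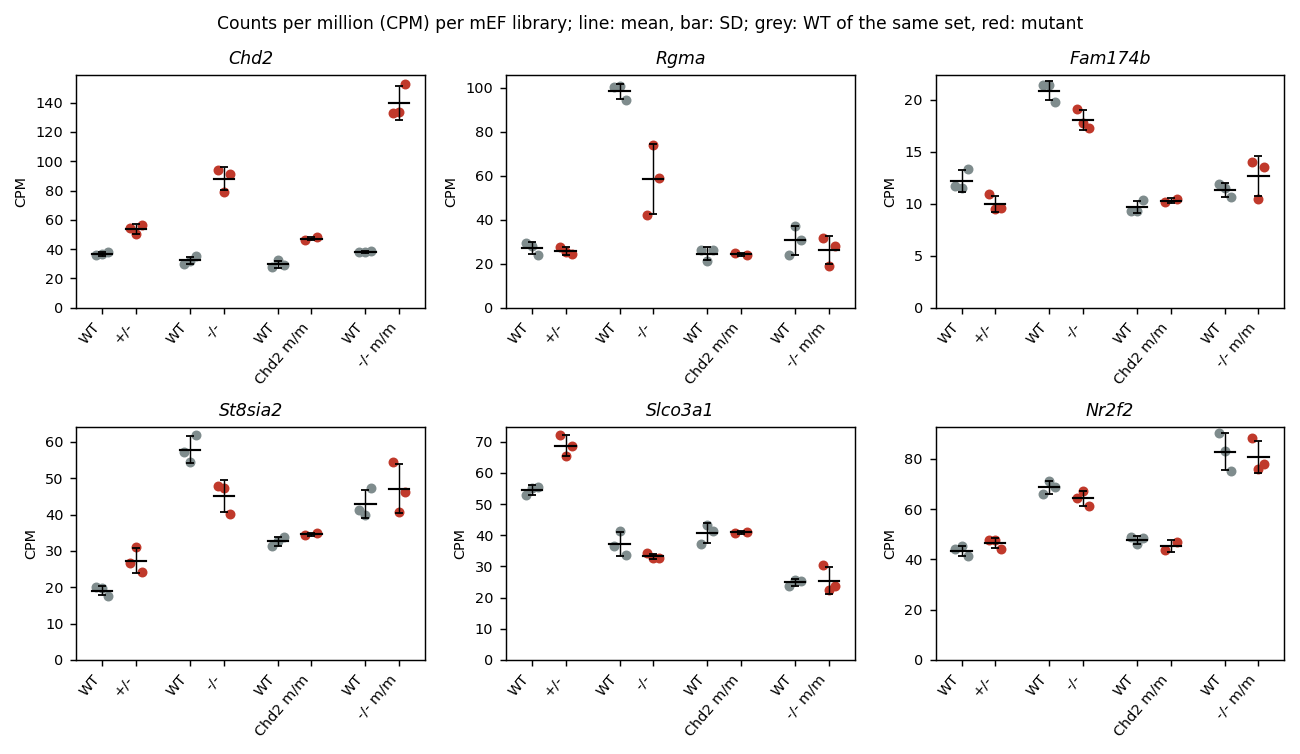
CPM (vertical axis, from 0) of Chd2 and 5 neighbours in each mEF library, with WT libraries in grey, mutant libraries in red, lines for the mean and bars for the SD, in the 4 mEF sets. Rgma is at 94.3 to 101 CPM only in the WT mEFs of the Chaserr-/- set, and the mutants of that set (42.3 to 74.0 CPM) still exceed all other WT mEFs.

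Fam174b, the closest protein-coding gene on the Chaserr side, had log2 fold changes between -0.29 and 0.15 in all mutants. In Chaserr+/- embryos its log2 fold change was 0.07 (95% interval -0.12 to 0.26) at E9.5 and 0.08 (-0.10 to 0.25) at E13.5. In Chaserr+/- mEFs it was at 10.9, 9.499 and 9.57 CPM against 11.7, 11.5 and 13.4 CPM in WT. In Chaserr-/- mEFs it was at 19.1, 17.8 and 17.3 CPM against 21.4, 21.5 and 19.9 CPM. All mutant libraries were below all WT libraries in both sets, where 6.85% and 21.4% of all genes did the same, and the log2 fold changes were -0.29 (adjusted p = 0.577) and -0.21 (adjusted p = 0.301 from edgeR). The second value was 0.10 (adjusted p = 0.816) with the WT mEFs of the Chaserr+/- set added as controls. The double mutant, which also lacks Chaserr, had 14.0, 10.4 and 13.53 CPM against 11.9, 11.5 and 10.6 CPM, a log2 fold change of 0.15 (-0.20 to 0.51) with overlap.

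St8sia2 lay on opposite sides of WT in 2 mEF sets. Chaserr+/- mEFs had 26.7, 31.0 and 24.2 CPM against 19.9, 19.8 and 17.6 CPM in WT, all mutants being higher, as for 7.65% of all genes. Chaserr-/- mEFs had 47.7, 47.4 and 40.03 CPM against 57.1, 54.5 and 61.9 CPM, all mutants being lower. The log2 fold changes were 0.52 (standard error 0.116, adjusted p = 0.154) and -0.36 (standard error 0.134, adjusted p = 0.098), neither past the threshold of edgeR. The second value was 0.21 (adjusted p = 0.791) when WT mEFs of the Chaserr+/- set were added as controls. In one fit over all mEF sets, the difference between these changes (Chaserr-/- minus Chaserr+/-) was -0.88 (standard error 0.159, adjusted p = 0.00883 from edgeR), where 13.3% of 15124 genes passed, 5.38% with a negative difference. It passed in each fit that left out 1 library and with the GC and length correction (-0.85), both chosen after seeing the data. The difference between Chaserr-/- and double mutant mEFs was -0.49 (adjusted p = 0.0378), where 15.6% of genes passed, 5.38% with a negative difference. This call was kept in 13 of 23 fits that left out 1 library and lost with the GC and length correction (-0.45, adjusted p = 0.097 from edgeR). Between double mutant and Chd2 m/m mEFs 0 of 7 neighbours passed (0.0132% of genes).

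Markers of skeletal muscle and of chondrocytes lay on the same side of WT as St8sia2 in Chaserr+/- and Chaserr-/- mEFs. The summed level of 14 muscle genes, of which Actc1 was the most abundant and none was at 0 in mEFs, was 806, 598 and 534 TPM in Chaserr+/- mEFs and 378, 426 and 377 TPM in their WT. It was 896, 856 and 793 TPM in Chaserr-/- mEFs and 1997, 1487 and 1155 TPM in their WT. The median log2 fold change of the muscle genes was 0.70 in the first comparison, with 12 of 14 higher in all mutant libraries (7.65% of all genes), and -0.65 in the second, with 12 of 14 lower in all mutant libraries (21.4% of all genes). In the double mutant, where St8sia2 was at 54.3, 40.8 and 46.3 CPM against 41.3, 39.9 and 47.3 CPM, the muscle sum was 1165, 1162 and 928 TPM against 751, 835 and 661 TPM. In the difference between Chaserr-/- and Chaserr+/- mEFs, 11 of 14 muscle genes were called lower, where 13.3% of all genes were called (5.38% lower), and 8 after correcting for GC content and length, where 3.6% of all genes were.

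The 11 chondrocyte genes summed to 289, 208 and 231 TPM in Chaserr+/- mEFs and to 191, 201 and 170 TPM in their WT, mostly from Col2a1, the collagen of cartilage. Their sum was 37.7, 84.1 and 88.96 TPM in Chaserr-/- mEFs against 89.2, 125 and 131 TPM, with none at 0 in any mEF library. Their median log2 fold change was 0.57 in Chaserr+/- mEFs (8 of 10 positive), -0.62 in Chaserr-/- mEFs (10 of 11 negative), -0.80 in Chd2 m/m mEFs (10 of 11 negative) and 0.40 in the double mutant (9 of 11 positive), and none was called in these comparisons. In Chd2 m/m mEFs St8sia2 was on the other side from these genes, at 34.2 and 34.8 CPM against 31.4, 32.6 and 33.8 CPM in WT (log2 fold change 0.08). The muscle genes had a median of 0.27 there, with 13 of 14 positive. Sox9 was called lower in the difference between Chaserr-/- and Chaserr+/- mEFs (adjusted p = 0.0336 from edgeR), and Acan (-1.59) and Col2a1 (-1.76) in that between Chaserr-/- and double mutant mEFs, but no chondrocyte gene was with the GC and length correction. More cells of a type and more RNA per cell cannot be told apart in bulk RNA, and the part of muscle and cartilage in the values of St8sia2 was not tested.

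Macrophage genes had a sum of 1040, 1051 and 1095 TPM in Chaserr-/- mEFs and of 1608, 1351 and 1446 TPM in their WT. In the double mutant the sum was 857, 618 and 588 TPM against 940, 923 and 1035 TPM. The median log2 fold change of these genes was -0.47 in the first comparison (13 of 17 negative) and -0.41 in the second (16 of 17 negative). Fcer1g or Lyz2 was their most abundant gene and none of the 17 was at 0. Fibroblast genes, led by Vim, summed to 7624, 7847 and 9079 TPM in Chaserr-/- mEFs and to 9607, 10192 and 9217 TPM in their WT, and overlapped between double mutant mEFs and their WT. Their median log2 fold changes were -0.25 and -0.44, with 8 and 6 of 9 negative. Of the 7 cell type lists, the muscle list had 1 called gene in Chaserr+/- mEFs (Ttn) and 1 in Chaserr-/- mEFs (Acta1), and the macrophage list 2 in Chaserr-/- mEFs (Cd68 and Laptm5) and 1 in double mutant mEFs (Mrc1). The neuron, fibroblast, endothelium, chondrocyte and astrocyte lists had no called gene in any mutant against its own WT. In E9.5 embryos, 1 Chaserr+/- library (replicate 3) had a muscle sum of 75.6 TPM where the other 5 libraries had 838 to 1233 TPM, and without it again no neighbour was called.

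Slco3a1 was higher in all Chaserr+/- mEFs, at 72.2, 65.6 and 68.6 CPM against 52.8, 55.2 and 55.6 CPM, as for 7.65% of all genes. Its log2 fold change was 0.33 (standard error 0.0808, adjusted p = 0.192, edgeR). Chaserr-/- mEFs had 34.2, 32.7 and 32.8 CPM against 36.5, 41.3 and 33.7 CPM, a log2 fold change of -0.16 (95% interval -0.46 to 0.14), which was -0.52 (adjusted p = 0.168) with the WT mEFs of the Chaserr+/- set added as controls. The difference between both changes was -0.49 (standard error 0.141, adjusted p = 0.0294 from edgeR), where 13.3% of 15124 genes passed, 5.38% with a negative difference. This call was kept with the GC and length correction, where 3.6% of genes passed. It was lost without WT replicate 1 or 3 or mutant replicate 1 of the Chaserr+/- set, or without WT replicate 5 of the Chaserr-/- set (adjusted p of at most 0.0793). The correction and these fits were chosen after seeing the data. In embryos, brain, Chd2 m/m and double mutant mEFs the log2 fold change of Slco3a1 lay between -0.16 and 0.03. Its values in Chaserr+/- and Chaserr-/- mEFs had the same signs as the muscle and chondrocyte medians there, but its groups overlapped in the latter. In double mutant mEFs Slco3a1 was at 0.03, where the medians were 0.59 (muscle) and 0.40 (chondrocyte). In Chd2 m/m mEFs it was at 0.01, where they were 0.27 and -0.80. The part of these markers was not tested.

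Mctp2 was low in all mEFs. In Chaserr-/- mEFs it was at 3.90, 1.67 and 2.14 CPM (38, 19 and 21 counts) against 1.37, 1.25 and 1.38 CPM (15, 12 and 14 counts), a log2 fold change of 0.93 (95% interval 0.08 to 1.78, adjusted p = 0.12 from edgeR). The mutant libraries were all above WT, as for 21.8% of all genes, with replicate 1 far above the others. The value ran from 0.51 to 1.18 with 1 library left out and from 0.55 to 0.96 under the other alternatives, never called. In the double mutant the log2 fold change was -0.24 (-1.02 to 0.53). The difference between Chaserr-/- and double mutant mEFs was 1.18 (adjusted p = 0.0901 from edgeR), not called. In brain, where its level is highest, Mctp2 was at 2.49, 2.96 and 1.06 CPM in Chaserr+/- and at 4.11, 3.502 and 2.38 CPM in WT. The groups overlapped, but the mutant was lower in each of the 3 pairs of equal replicate number. The log2 fold change was -0.63 (-1.70 to 0.45), or -0.71 with the replicate block (adjusted p = 0.358 from edgeR), not called. Macrophage and astrocyte sums were also lower in the mutant of each brain pair, and endothelium, muscle and chondrocyte sums higher. The median log2 fold change was -0.31 for macrophage genes (15 of 17 negative) and -0.265 for astrocyte genes (5 of 5 negative). It was 0.25 for endothelium genes (6 of 8 positive). The part of these cell types in the value of Mctp2 was not tested.

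Sv2b had 3 to 9 counts per library in the Chaserr+/- set and 7 to 14 in the Chaserr-/- set, too few for the filter. With no filter its log2 fold changes were 0.20 and 0.29, not called, and the difference between both changes was 0.08 with a wide interval (-1.22 to 1.37). Chd2 m/m mEFs had 15 and 17 counts of Sv2b against 28, 22 and 25 in WT, both mutants being lower, with a log2 fold change of -0.67 (-1.38 to 0.03, adjusted p = 0.937 from edgeR). In brain, where it is abundant, Sv2b was at 308, 324 and 377 CPM in Chaserr+/- and at 295, 296 and 423 CPM in WT, a log2 fold change of -0.01 (-0.49 to 0.48).

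Nr2f2, the most distant neighbour, overlapped between mutant and WT in all 7 comparisons. Its log2 fold change was -0.09 (95% interval -0.25 to 0.08) at E9.5, 0.08 (-0.10 to 0.27) at E13.5, 0.10 (-0.09 to 0.28) in Chaserr+/- mEFs, -0.09 (-0.36 to 0.17) in Chaserr-/- mEFs and -0.04 (-0.27 to 0.19) in the double mutant. In Chd2 m/m mEFs it was -0.08 (-0.23 to 0.08), and in brain 0.002 with a wide interval (-0.90 to 0.90). Over the alternatives, the value in Chaserr-/- mEFs ran from -0.34 to 0.17 and was never called. In the double mutant Nr2f2 was at 88.1, 76.0 and 78.0 CPM against 90.1, 83.2 and 75.3 CPM, with overlap.

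The change of Chd2 was then set against that of each neighbour in the same libraries. The log2 ratio of Chd2 to the neighbour (log2 CPM with a prior count of 2) was compared between mutant and WT by a two-sided exact permutation test, for which p = 0.1 is the smallest possible value with 3 or with 2 libraries against 3. Chd2 itself did not overlap between mutant and WT in any of the 7 comparisons, so most genes separate from it in this way, and the share of all tested genes that did is given beside each count. Relative to all 7 neighbours, Chd2 was higher in mutants without overlap in E13.5 embryos (by 0.67 to 0.89 on the log2 scale, 91.0% of all genes) and in double mutant mEFs (by 1.72 to 2.17, 99.1% of all genes). The same held for all 6 tested neighbours in Chaserr-/- mEFs, by 0.66 (Mctp2) to 2.23 (Rgma), and for 94.0% of all genes. In E9.5 embryos this held for 6 of 7 (89.6% of all genes), the exception being Sv2b (0.45, exact permutation p = 0.3), and in Chd2 m/m mEFs for 7 of 7 (91.2% of all genes), although 1 of them, Rgma, did not reach the smallest p (0.67, exact permutation p = 0.2). In brains it held for 3 of 7 (Mctp2, Fam174b and Sv2b, against 60% of all genes), with all 7 differences positive. In brain, replicate 3 of each genotype is the TruSeq library, and pairs of equal number are matched by kit but not known to be matched otherwise. Within each of the 3 pairs of equal number Chd2 was higher in the mutant relative to all 7 neighbours. The difference was 0.52 to 1.11 for Rgma and 0.53 to 2.28 over the others. Chd2 itself was higher in the mutant of each pair (58.2, 65.0 and 105 against 34.2, 35.2 and 46.5 CPM). A gene without a change would therefore also give this, and the share of all genes was not counted for these pairs. The count within pairs is thus no result about the neighbours. With 3 pairs, an exact permutation test of the sign cannot go below p = 0.25. In Chaserr+/- mEFs it held for 5 of 6 (77.6% of all genes). There the difference was 0.04 for St8sia2 (exact permutation p = 0.9) and 0.21 for Slco3a1 (exact permutation p = 0.1). With a prior count of 0.5, Mctp2 in Chaserr-/- mEFs overlapped (exact permutation p = 0.3).

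The other annotated rows whose starts lie within 5 Mb of the Chd2 start were treated alike. Of 9, between 3 and 5 had enough counts in each mutant comparison, and 0 were called. Mutant and WT libraries did not overlap for 1 of 5 rows at E9.5 (9.62% of all genes), 3 of 5 at E13.5 (12.8%), 3 of 3 in Chaserr+/- mEFs (14.5%) and 1 of 4 in Chaserr-/- mEFs (43.2%), and for none elsewhere. An unadjusted p under 0.05 was reached by 1 of 5 at E13.5 (6.34% of all genes), 2 of 3 in Chaserr+/- mEFs (8.36%) and 1 of 4 in Chaserr-/- mEFs (33.9%). Among the protein-coding ones, Akap13 had log2 fold changes of -0.12 to 0.22, Klhl25 of -0.38 to 0.04 and Arrdc4 of -0.33 to 0.14 over the 7 comparisons. In Chaserr+/- mEFs Akap13 was at 0.22 (adjusted p = 0.467) and Arrdc4 at -0.33 (adjusted p = 0.589 from edgeR). Gm10619 and Agbl1 were not tested in any. Closest on the Rgma side is A730056A06Rik, a lincRNA on the opposite strand whose first bases overlap the start of Rgma. Its log2 fold change was 0.80 in Chaserr-/- mEFs (standard error 0.337, adjusted p = 0.129) and -0.08 in the double mutant (adjusted p = 0.977 from edgeR). Closest on the other side is Gm4971, a pseudogene, which was not tested in any mutant comparison. Whether the quantification used strand is not given in the sources used here, so reads of A730056A06Rik and Rgma may not be told apart.

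Relatives and partners of the neighbours that lie elsewhere in the genome were counted for comparison. Of 24 such genes, 16 to 24 were tested in each mutant comparison and 0 were called, and the same held for 18 BMP pathway genes, all of which were tested. In Chaserr-/- mEFs the median log2 fold change was -0.17 for the relatives and -0.14 for the BMP genes, where it was -0.19 for the neighbours. Rgmb, the paralogue of Rgma, had a log2 fold change of -0.20 there (adjusted p = 0.44), Fam174a of 0.24 (adjusted p = 0.453), Nr2f1 of -0.36 (adjusted p = 0.163) and Sv2a of -0.96 (adjusted p = 0.0872 from edgeR). In the difference between Chaserr-/- and double mutant mEFs, where 15.6% of all genes were called, 7 of 18 BMP genes were, but none with the GC and length correction, which left 2.39% of all genes called. The ligands Bmp4 (-0.82) and Bmp7 (-1.04), the transducer Smad1 (-0.35) and the target genes Id1 (-0.80) and Id3 (-0.75) were lower in this difference, and the receptors Bmpr1a (0.77) and Acvr2a (0.98) were higher. Of the relatives, 5 of 20 tested were called, again none with the correction, namely Neo1 (-0.46), the receptor of RGMA, together with Hjv (-1.54), Unc5b (-0.78), Nr2f1 (-0.63) and Mctp1 (1.97). In the difference between Chaserr-/- and Chaserr+/- mEFs, Neo1 (-0.45), Sv2a (-1.53), Slco5a1 (1.11), Bmpr1a (0.85) and Bmpr1b (0.76) were called, against 13.3% of all genes, and of them only Neo1 with the correction (3.6% of all genes). Both differences use the Chaserr-/- set, whose trend with GC content is given above.

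Accessibility at the start sites was read from the ATAC-seq peaks. The promoter of Fam174b, the nearest protein-coding gene beyond the deleted interval, is shown because a peak lay at it in most libraries. It runs from 250 bases before to 50 after the start (mm9), 5′ to 3′ on the strand of the gene, with CG dinucleotides in capitals.
Fam174b, chr7:80884943-80885242, plus strand: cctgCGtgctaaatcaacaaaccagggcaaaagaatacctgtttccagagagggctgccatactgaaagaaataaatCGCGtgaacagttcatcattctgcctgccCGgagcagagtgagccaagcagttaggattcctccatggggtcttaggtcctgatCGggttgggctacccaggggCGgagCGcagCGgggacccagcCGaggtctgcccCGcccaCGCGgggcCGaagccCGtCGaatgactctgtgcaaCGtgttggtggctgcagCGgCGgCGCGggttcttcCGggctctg
It holds 21 CG dinucleotides, and 20.8% of 2065 promoters of chromosome 7 hold at least as many, the median of all being 6. Those of Slco3a1, Mctp2, St8sia2, Sv2b and Nr2f2 hold 31, 20, 20, 10 and 2.

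A peak lay within 300 bases of the annotated start of 6 of 7 neighbours in each WT library of the Chaserr-/- set and of 6, 7 and 6 in the Chaserr-/- libraries, where 55.3 to 59.3% of all 22380 promoters had one. In the double mutant set the numbers were 5, 0 and 6 in WT, against 53.5, 31.9 and 55.5% of all promoters, and 1, 7 and 6 in the mutant, against 40.2, 55 and 57.0%. The libraries with 0 and 1 were those with the fewest peaks in all, 18661 and 28349, where the other 10 had 58324 to 93597. Nr2f2 had a peak at its annotated start in 2 of 12 libraries. Rgma had fold enrichments of 4.74, 7.02 and 7.02 in Chaserr-/- and of 5.56, 5.96 and 5.59 in WT mEFs, with overlap (exact permutation p = 0.4). Fam174b had 9.75, 8.30 and 10.3 against 8.70, 9.86 and 9.52 (exact permutation p = 0.9). In the Chaserr-/- set 1 of 7 neighbours did not overlap between the groups, against 12.0% of all promoters with a peak, namely Mctp2 with 8.04, 9.43 and 8.26 against 6.52, 7.85 and 4.70 (exact permutation p = 0.1, the smallest possible). In the double mutant set none did, against 0.911%. Fold enrichments of single peaks are not normalized between libraries, so these values compare presence and rough size only.

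**Figure D3:**
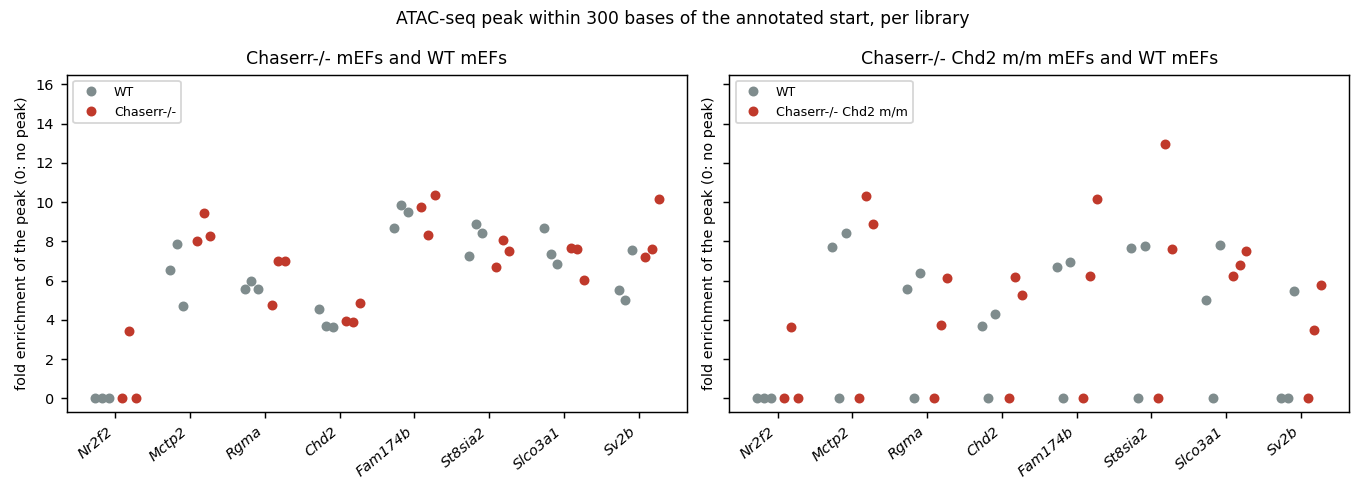
Fold enrichment (vertical axis, 0 where no peak was called) of the ATAC-seq peak at the annotated start of Chd2 and each neighbour, per library, with WT in grey and mutants in red. Groups overlap for all genes but Mctp2 in the left panel, and the points at 0 in the right panel come mainly from 1 WT and 1 mutant library with few peaks.

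The neighbours differed widely in where they were expressed. Levels are given as TPM, which are per transcript length, as means over WT libraries. Nr2f2 was at 52.2 ± 0.947 TPM (SD, n = 3) at E9.5, 28.1 ± 2.02 at E13.5, 16.2 ± 4.98 in brain and 24.998 ± 8.04 (n = 12) in mEFs, and Rgma at 29.7, 56.6, 47.3 and 21.7 TPM. For Rgma, each neighbouring pair of tissues in the order of levels overlapped between libraries. Fam174b was at 11.02, 26.5, 20.4 and 8.83 TPM in the same order, and Slco3a1 at 6.75, 11.97, 32.03 and 18.6 TPM. In the input of the RIP (n = 2) Slco3a1 was at 82.1 TPM, Nr2f2 at 25.4, Rgma at 11.5, Sv2b at 10.7, Fam174b at 5.04 and St8sia2 at 0.515 TPM. St8sia2 was at 35.9 TPM in E13.5 embryos and at 12.1 in mEFs, 6.85 in E9.5 embryos and 3.21 in brain, with overlap, among neighbours in this order, only between mEFs and E9.5 embryos. Sv2b, a marker of mature synapses, was at 140 TPM in brain, 4.81 in E13.5 embryos, 0.583 in E9.5 embryos and 0.32 in mEFs. Mctp2 was at 1.26 TPM in brain, at 0.548 to 0.753 TPM in embryos and mEFs and at 0.08 TPM in the RIP input. Chd2 itself was at 25.1 TPM in E9.5 and 26.0 TPM in E13.5 embryos, 9.35 in brain and 6.43 in mEFs.

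In a fit over all WT libraries, 6 of 7 neighbours differed between E13.5 and E9.5 embryos (66.4% of 16364 genes called), between brain and E13.5 embryos (77.7%) and between mEFs and E13.5 embryos (81.5%). From E9.5 to E13.5, St8sia2 rose by 2.09 and Sv2b by 2.74 on the log2 scale, Fam174b by 0.97, Rgma by 0.63 and Slco3a1 by 0.56, while Nr2f2 fell by 1.19. From E13.5 embryos to brain, Sv2b rose by 4.96, Slco3a1 by 1.31 and Mctp2 by 0.92, St8sia2 fell by 3.38 and Nr2f2 by 0.67, and Rgma had a value of -0.13 that was not called. With the TruSeq brain library alone, which matches the kit of the embryos, the value was -0.59 for Rgma (adjusted p = 0.0064) and 0.62 for Mctp2 (adjusted p = 0.0881 from edgeR). That fit has 1 brain library, which is assumed to vary like the other groups, and called 73.4% of all genes. Fam174b fell by 0.25 over all brain libraries, but the value was 0.04 with the TruSeq library alone. For Nr2f2 the value ran from -1.17 to -0.48 over the alternatives, and from -0.92 to -0.41 with 1 library left out. In mEFs relative to E13.5 embryos, Sv2b fell by 3.37, St8sia2 by 1.00, Fam174b by 0.96 and Rgma by 0.96, and Slco3a1 rose by 1.13 and Nr2f2 by 0.45. The median of all genes lay at -0.29 in this last comparison, in which kit and tissue cannot be told apart.

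**Figure D4:**
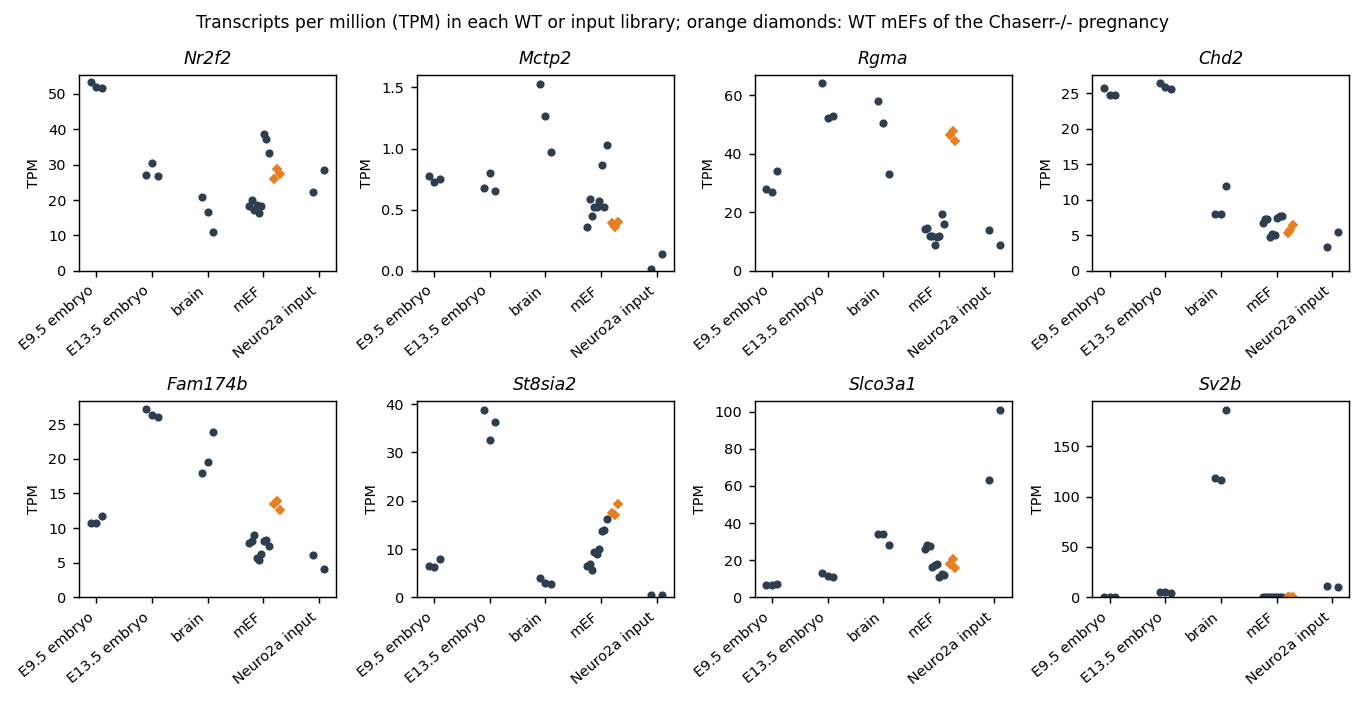
TPM (vertical axis, from 0, scaled per gene) of Chd2 and its neighbours in each WT library of the 4 tissues and in the RIP input, with orange diamonds for the WT mEFs of the Chaserr-/- pregnancy. Sv2b reaches 140 TPM on average in brain and under 11 elsewhere, St8sia2 is highest in E13.5 embryos, and the diamonds stand above the other mEFs for Rgma.

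The genes most like each neighbour over 23 libraries (12 mEF, 9 embryo and brain, 2 RIP input) were sought among 14828 genes by Pearson's r of log2(TPM + 1), as a description. They were Heyl (0.93) and Ptov1 (0.92) for Rgma, Itpkb (0.98) and Trafd1 (0.96) for Fam174b, and Svbp (0.98) and Ebf2 (0.96) for St8sia2. For Slco3a1 they were Mcoln1 (0.99) and Adam15 (0.97), for Nr2f2 2700049A03Rik (0.93) and Cnot1 (0.92), and for Sv2b Vxn (0.9985) and Cnih3 (0.9961). The libraries share tissue and kit, which also shape these values. With Chd2, r was 0.64 for Fam174b, 0.55 for Rgma, 0.51 for Nr2f2, 0.41 for St8sia2, 0.07 for Sv2b and -0.64 for Slco3a1.

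In the RIP, transcripts that copurify with CHD2 were compared with IgG and input. The libraries are labelled Neuro2a, and all 10 neuron markers were above 0. However, all 5 astrocyte markers were also above 0, led by Slc1a2, with sums of 159 and 120 TPM in the input, 796 and 553 in IgG and 404 and 332 TPM in the CHD2 libraries, and 17 macrophage markers, led by C1qb or Tyrobp, summed to 248 and 203, 1289 and 965, and 624.7 and 555 TPM. At most 1 of the 17 was at 0 in a library. A neuroblastoma line is not known for these markers, and their part in the RIP values was not tested. Nr2f2 was at 299.8 and 150.7 CPM in the CHD2 libraries, 59.3 and 50.8 in IgG and 66.1 and 61.8 CPM in the input. The CHD2 libraries were above all others, with log2 fold changes of 2.03 over IgG (standard error 0.374, adjusted p = 0.0132) and 1.82 over input (standard error 0.372, adjusted p = 0.0183 from edgeR). Of the 6 tested neighbours it was the only one called, in both contrasts, where 11.5% and 15.1% of 14906 genes were called, 11.1% and 8.91% with the higher level in CHD2. Without CHD2 replicate 1, the log2 fold changes were 1.295 and 1.01. It was not called without either CHD2 library (adjusted p of 0.0778 to 0.151 over IgG), and over input also not without either input library (adjusted p of at most 0.199 over these 4).

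The other neighbours did not pass the test, although some calls over IgG changed with the processing. Slco3a1 had a log2 fold change of 1.18 over IgG (adjusted p = 0.0682) and of 0.35 over input, and at 181 and 199 CPM its CHD2 libraries were also above both IgG (57.5 and 110 CPM) and both input libraries (136 and 164 CPM). Rgma was at -1.04 over IgG and 0.90 over input, Sv2b at -1.04 and 0.84, St8sia2 at -1.37 and 0.78, and Fam174b at -0.61 and 0.90, none of them called. Over IgG, Slco3a1 and Sv2b were called with no filter on low counts, with DESeq2 and with the replicate block (adjusted p of 0.0165 to 0.0428), and Rgma with the last 2 of these (adjusted p of 0.0459 and 0.039), where 14.1%, 21.7% and 25.2% of all genes were. Over input, the block also called Rgma and Sv2b (adjusted p of 0.0405 and 0.0326), among 28.2% of all genes. For Rgma, Sv2b, St8sia2 and Fam174b, both IgG libraries were above, and both input libraries below, both CHD2 libraries. The share of all genes with this order, or with that of Slco3a1, was not counted. The median of all genes was 0.02 over IgG and 0.32 over input. Medians of neuron (-0.70 and 0.83), macrophage (-1.05 and 0.81) and astrocyte markers (-1.14 and 0.84) had the same signs as these 4 neighbours. The fibroblast median was negative in both (-0.71 and -0.31). Mctp2 had too few counts. Chd2 mRNA had log2 fold changes of 2.02 and 1.75. Of the other rows within 5 Mb, 1 of 4 tested was called in both contrasts, Akap13, an anchoring protein gene, at 1.30 over IgG (adjusted p = 0.0374) and 1.62 over input (adjusted p = 0.0183 from edgeR).

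**Figure D5:**
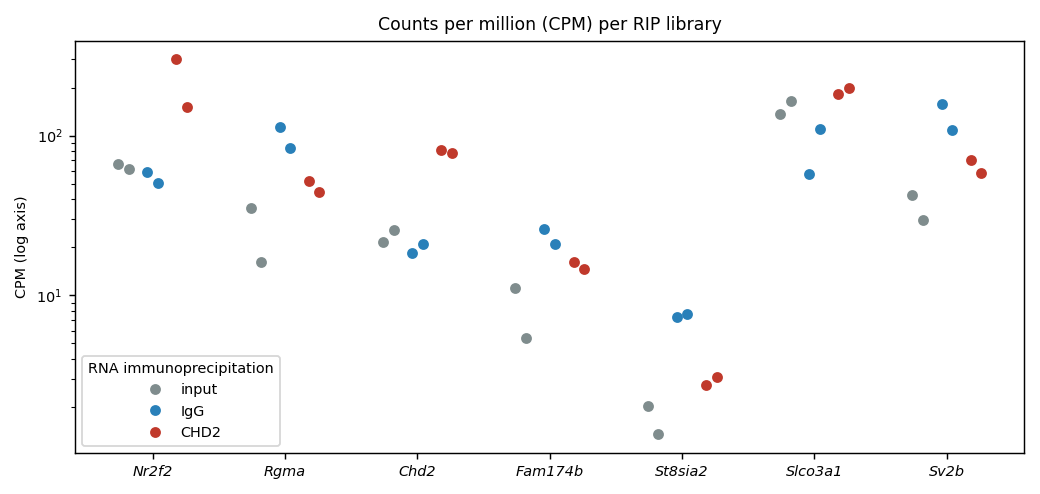
CPM (vertical log axis) of Chd2 and 6 neighbours in each RIP library, with input in grey, IgG in blue and CHD2 in red. Nr2f2, Slco3a1 and Chd2 are higher in both CHD2 libraries than in all other libraries, while Rgma, Fam174b, St8sia2 and Sv2b are highest in IgG.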

How the data were processed

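RSEM was run by the authors against a RefSeq annotation in which they had corrected Chaserr's last exon. The deposited expected counts and TPM were used, but not the deposited FPKM. None is normalized between libraries. For ATAC-seq, reads were aligned to mm9 with Bowtie2 and peaks called with MACS2 per library; the deposited fold enrichment (a ratio over local background) and -log10 q were used. Versions are not given in the sources used here. Rounded expected counts went into edgeR 4.0.16 under R 4.3.3 (its quasi-likelihood test after filterByExpr and TMM), each mutant against its own WT without covariates. DESeq2 1.42.0 was an alternative. CPM are after TMM scaling. The scripts were tested on simulated data. Brain libraries of equal replicate number correlated (0.438 to 0.749), more than those of other sets (at most 0.353). Libraries of different number were not compared, and replicate 3 alone is TruSeq, so pairing beyond the kit is not shown. Positions came from GENCODE vM1, sequences from mm9 and the study's guide list. The genes, lists and tests were chosen with earlier results of these data known. The 7 genes, Chd2, Chaserr, list genes that were called and the closest paralogues were named by rule. A promoter peak lay within 300 bases of the start. 4C data were not analysed here. 1 further promoter sequence is not reported here.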

Additional observations from a re-analysis of the deposited data

Results flagged for a closer look

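The changes of St8sia2 and Slco3a1 differed between mEF comparisons by a test of the difference itself, made in one edgeR fit over all mEF sets. For St8sia2 the difference (Chaserr-/- minus Chaserr+/-) was -0.876 on the log2 scale and for Slco3a1 -0.494, where 13.3% of all genes were called. The call of St8sia2 was kept in each of 23 fits that left out 1 library, and that of Slco3a1 in 19. For St8sia2, the difference between Chaserr-/- and double mutant mEFs was -0.490, where 15.6% of all genes were called. The last call disappeared under a GC and length correction (-0.45), and also without WT replicate 5 or 6 or mutant replicate 1 or 3 of the Chaserr-/- set, either Chd2 m/m library, WT replicate 1 or 2 or mutant replicate 1 or 3 of the double mutant set (differences of -0.38 to -0.53). All of these comparisons share the Chaserr-/- set. Medians of muscle and chondrocyte markers had the same signs as St8sia2 and Slco3a1 in Chaserr+/- and Chaserr-/- mEFs, although Slco3a1 overlapped between groups in the latter. In double mutant mEFs Slco3a1 was at 0.03, where the medians were 0.59 (muscle) and 0.40 (chondrocyte). In Chd2 m/m mEFs the chondrocyte median was -0.80, where St8sia2 was at 0.08 and Slco3a1 at 0.01. The part of these markers was not tested.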

How the results depend on the processing

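In 6 of 7 mutant comparisons no neighbour was called under any alternative: no filter, at least 10 counts per library, DESeq2 size factors, DESeq2, GC and length correction, replicate block, or 1 library left out. In Chaserr-/- mEFs 1 was called (Rgma) when the filter was dropped, at a minimum of 10 counts per library, or under DESeq2, and 0 to 1 with 1 library left out. No paired analysis was possible for this set because its WT libraries carry other replicate numbers. With the replicate block, 0 neighbours were called in the other mutant comparisons, as without it. In brain no neighbour was called either with the kit as a covariate or with the Lexogen libraries alone. Brain libraries of equal number correlated, but no pairing beyond the kit is shown. Within brain pairs of equal number the ratio of Chd2 to the neighbour was higher in mutants for 7 neighbours. Chd2 itself was also higher in the mutant of each pair, and the share of all genes was not counted. The count within pairs is thus no result about the neighbours. By another criterion, no overlap between unpaired groups, the count was 3 (60% of all genes), and it cannot be set against the count within pairs. Of 611 single-gene values over these alternatives, 555 kept direction and side of the threshold, 51 changed sign without being called and 5 were called.

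The difference between Chaserr-/- and Chaserr+/- mEFs had 2 neighbours called, and 1 to 4 with 1 library left out, where 331 to 3769 of all genes were called. That between Chaserr-/- and double mutant mEFs had 1, 0 with the GC and length correction and 0 to 3 with 1 library left out (593 to 3857 of all genes). These 2 alternatives for the differences, and the ratios within brain pairs, were chosen after seeing the data. In the RIP, 1 neighbour was called over IgG, but 3 with no filter on low counts, 4 with DESeq2, 4 with the replicate block and 0 to 4 with 1 library left out. Over input it was 1, but 3 with the replicate block and 0 to 3 with 1 library left out. RIP replicates share only a number (correlations of 0.173 and 0.161). At promoters of the Chaserr-/- set 1 neighbour did not overlap (12.0% of all promoters with a peak). It was 2 by peak summit, 2 with a -log10 q of at least 10, and 1 to 3 with 1 library left out. In the double mutant set it was 0 (0.911%), and 0 to 1 with 1 library left out. The share of all promoters was not counted under these alternatives, so these counts cannot be set against it. In brain against E13.5 embryos 6 were called, and 5 to 6 with 1 library left out; Fam174b reversed to 0.0350 with the TruSeq brain library alone. The cause of these moves was not tested.

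Over all genes, calls in Chaserr-/- mEFs (16) ranged from 2 to 2827 with 1 library left out and were 2590 with DESeq2. They were 82 with DESeq2 in Chaserr+/- mEFs (23), 220 in double mutants (13), 23 in E13.5 embryos (5), and 99 with the replicate block in Chd2 m/m mEFs (2). For the difference between Chaserr-/- and Chaserr+/- mEFs (2012) calls were 544 with the GC and length correction, and 362 for that against the double mutant (2352). In the RIP 1707 calls over IgG and 2246 over input became 3757 and 4201 with the replicate block. With 1 library left out they ran from 0 (without CHD2 replicate 1) to 6468 and 5090. Few counts limit Mctp2 and Sv2b in mEFs.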

Other observations

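Chaserr itself was at 11.4 ± 2.61 TPM (SD, n = 3) in the WT mEFs of the Chaserr-/- set and at 17.8 to 93.7 TPM in the 9 other WT mEFs, with no overlap. Chd2 was at 5.88 TPM and 6.61 TPM in the same libraries, which overlapped.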
